A study of Mus musculus with 454 samples.

Results

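The transcripts described here are 9 genes known as markers of the choroid plexus epithelium: Ttr, Kl, Folr1, Clic6, F5, Enpp2, Otx2, Aqp1 and Slc4a5. They were taken by symbol from the count table, in which they are 9 of 43346 genes, and all of them were followed through every library. The choroid plexus is a folded, vascularised tissue that hangs in the ventricles of the brain. Its epithelial cells secrete the cerebrospinal fluid, seal the barrier between blood and that fluid with tight junctions, and release transport proteins such as transthyretin into it. It is a tissue apart from the neurons and glia of the regions that were dissected, and its genes are therefore a common check on what a brain dissection holds.

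The study asked what isolation during adolescence does to the transcriptome of reward regions in either sex. Its RNA-seq libraries come from mouse brain and carry 1 of 4 region labels, AMY (115 libraries), Nac (112), PFC (112) or VTA (115). These are the usual short forms of the amygdala, the nucleus accumbens, the prefrontal cortex and the ventral tegmental area. The mice were females (F) or males (M), socially isolated (SI) or housed in groups (G), given cocaine at 7.5 mg/kg or saline (0 mg/kg), on an acute (A) or a chronic (CHR) schedule. Crossing these labels gave 16 groups in each region and 64 in all, with 5 to 8 libraries in a group. The labels give the tissue only as brain and name neither a strain nor an age, so nothing beyond these labels is known to be shared by all groups. They do not say that each library is a separate animal, so p-values cover only the spread among libraries, part of which may be technical. Titles hold 129 different numbers, and 86 of these occur in each of the 4 regions. These numbers fall into ranges that start at 500, 1000, 1100 and 1200 and are called number series here, since the labels name no batch. Series 1000 held 112 acute and 84 chronic libraries, whereas series 1100 held acute libraries only (113) and series 500 and 1200 held chronic libraries only (45 and 100). In tissue libraries of this kind, fewer cells of a type and less RNA per cell cannot be told apart.

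Library totals ran from 11.21 to 52.34 mega-counts with a median of 21.7, so that 1 count per mega-count (CPM) stood for about 22 reads in a typical library. By median, the VTA, Nac and PFC labels were met by marker lists in libraries with Ttr up to 1000 CPM. The summed level of 8 dopamine neuron genes had a median of 4645 CPM in VTA, against 44.9 to 68.9 CPM in the other regions. For striatal genes it was 3658 CPM in Nac, against 212 to 259 CPM, and for cortical glutamatergic genes 2120 CPM in PFC, against 54.5 to 358 CPM. Single libraries went further. The cortical sum reached 1281 CPM in Nac and 1376 CPM in AMY (lowest in PFC 1295 CPM), and the striatal sum 1287 CPM in PFC (lowest in Nac 1450 CPM). In 3 libraries the Y-linked genes went against the label, with a limit set at 5% of the male median. All 3 are labelled female (isolated females with acute cocaine, replicate 1, in AMY, and in Nac replicate 2 of the group-housed and replicate 6 of the isolated females with chronic cocaine). Their Y-linked transcripts stood at 5.83%, 8.24% and 34.2% of the male median, and their Ttr at 9.86, 0.45 and 0.925 CPM. Their Xist, in the same order, stood at 97.4%, 77.9% and 69.3% of the female median, which goes with the label. Results that rest on sex labels in AMY are given with and without the first of them. A further 6 libraries (1 in Nac, 5 in PFC) stood apart on principal components computed without choroid plexus genes, with Ttr between 1.12 and 4.50 CPM.

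In the GENCODE M21 annotation of GRCm38, Ttr lies on chromosome 18 from 20665280 to 20674321, Enpp2 on chromosome 15 from 54838901 to 54952892 and Kl on chromosome 5 from 150952607 to 150993817. F5 lies on chromosome 1 from 164151838 to 164220277, Folr1 on chromosome 7 from 101858331 to 101870788 and Clic6 on chromosome 16 from 92485736 to 92541243. Otx2 lies on chromosome 14 from 48657677 to 48673819, and Aqp1 (55336432 to 55348555) and Slc4a5 (83219828 to 83304945) share chromosome 6. The members are thus spread over 8 chromosomes, and none overlaps another. Values count reads over all exons of a gene.

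The members differ in what they do. Ttr encodes transthyretin, the carrier of thyroid hormone and of retinol-binding protein in blood and cerebrospinal fluid. Enpp2 encodes autotaxin, a secreted enzyme that makes lysophosphatidic acid and is also made by oligodendrocytes, F5 encodes coagulation factor V, and Kl encodes klotho, the co-receptor of the hormone FGF23. Transport across the epithelium is served by the folate receptor Folr1, the water channel Aqp1 and the sodium bicarbonate cotransporter Slc4a5, and Clic6 belongs to the chloride intracellular channel family. Otx2 is a homeodomain transcription factor of the choroid plexus and of the midbrain.

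Stretches of promoter sequence are shown because these members move together in the libraries described below and Otx2 is the transcription factor among them. RefSeq gave windows of 250 bases upstream of a start for F5, Kl, Aqp1, Slc4a5 and Otx2 (4 starts) on GRCm38.p6. The windows of 8 starts were searched on both strands for TAATCC, the letters that Otx-type homeodomains prefer. In all, 1 of the 8 windows held it, a window of Otx2 itself, where capitals mark the match (read on the other strand), against 6.25% of 32851 RefSeq windows of the same length. The windows of F5 and Slc4a5 are printed beside it and hold no capitals because they hold no match. Ttr, Folr1, Clic6 and Enpp2 are named only.
Otx2, chr14:48665110-48665359, minus strand: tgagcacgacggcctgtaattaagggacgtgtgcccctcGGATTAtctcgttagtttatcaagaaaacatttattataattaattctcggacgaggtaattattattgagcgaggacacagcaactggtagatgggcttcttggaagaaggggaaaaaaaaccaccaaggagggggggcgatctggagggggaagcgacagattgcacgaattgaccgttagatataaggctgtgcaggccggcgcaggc
F5, chr1:164151585-164151834, plus strand: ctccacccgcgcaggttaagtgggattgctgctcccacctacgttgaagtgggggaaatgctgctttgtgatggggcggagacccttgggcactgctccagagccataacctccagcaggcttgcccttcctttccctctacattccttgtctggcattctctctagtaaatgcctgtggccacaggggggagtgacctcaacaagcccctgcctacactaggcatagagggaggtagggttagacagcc
Slc4a5, chr6:83237125-83237374, plus strand: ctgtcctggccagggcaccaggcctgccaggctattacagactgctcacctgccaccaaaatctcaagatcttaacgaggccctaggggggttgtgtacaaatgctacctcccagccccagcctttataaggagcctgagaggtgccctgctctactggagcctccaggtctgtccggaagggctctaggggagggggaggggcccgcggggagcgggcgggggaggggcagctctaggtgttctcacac

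In a typical library the members were low, with the exception of Enpp2. Ttr had a median of 18.9 CPM in AMY libraries, 1.56 CPM in those of Nac, 1.24 CPM for PFC and 7.33 CPM for VTA. Enpp2 had medians of 133, 168, 147 and 505 CPM in the same order of regions. Kl had its highest median in AMY (13.9 CPM), followed by Nac (8.30 CPM), PFC (4.11 CPM) and VTA (2.45 CPM). Clic6 was highest in Nac with a median of 30.6 CPM, against 16.8 CPM in AMY, 4.36 CPM in VTA and 0.587 CPM in PFC. Otx2 was highest in VTA with a median of 7.95 CPM, against 0.989 CPM in Nac, 0.337 CPM in AMY and 0.0939 CPM in PFC. F5, Folr1, Aqp1 and Slc4a5 had medians between 0.0666 and 1.39 CPM in all regions, and Folr1 and Slc4a5 had no read at all in 27 to 30 of the 112 PFC libraries and in 22 to 27 of the 112 Nac libraries. Per kilobase of exon, which allows genes to be set against each other, Enpp2 led in all 4 regions, with a median of 23.1 CPM per kb in AMY and 87.4 CPM per kb in VTA. Ttr came next in AMY (16 CPM per kb) and in VTA (6.18 CPM per kb), whereas Clic6 came next in Nac (7.82 CPM per kb) and Ttr in PFC (1.04 CPM per kb). Slc4a5 was the lowest of the 9 per kilobase in AMY, Nac and PFC, at 0.0389, 0.0158 and 0.0115 CPM per kb, and Folr1 in VTA, at 0.0489 CPM per kb.

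These medians hide a small number of libraries in which the members were higher by orders of magnitude. Ttr passed 1000 CPM in 11 libraries, 6 in AMY, 1 in Nac, 4 in VTA and none in PFC. In AMY its levels there were 5026 CPM (group-housed males, acute cocaine, replicate 7), 3736 CPM (group-housed females, chronic cocaine, replicate 5), 3456 CPM (isolated males, acute saline, replicate 1), 2714 CPM (isolated males, acute cocaine, replicate 2), 1336 CPM (isolated males, acute saline, replicate 6) and 1095.2 CPM (group-housed males, acute saline, replicate 3). The next AMY library had 186 CPM. In Nac the only such library had 3098 CPM (group-housed males, chronic saline, replicate 8), and the next had 232 CPM. In VTA the 4 libraries had 10239 CPM (isolated females, acute cocaine, replicate 8), 4714 CPM (isolated males, acute cocaine, replicate 7), 2153 CPM (group-housed males, acute saline, replicate 2) and 1230.3 CPM (isolated females, acute cocaine, replicate 2), and the next had 369 CPM. The 11 libraries had totals between 19.32 and 26.02 mega-counts. The limit of 1000 CPM was chosen after the values had been seen. Ttr was over 10 CPM in 87 of 115 AMY libraries and 43 of 115 VTA libraries, against 11 of 112 for Nac and 1 of 112 for PFC. It was over 100 CPM in 10, 6, 2 and 0 of them.

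**Figure D1:**
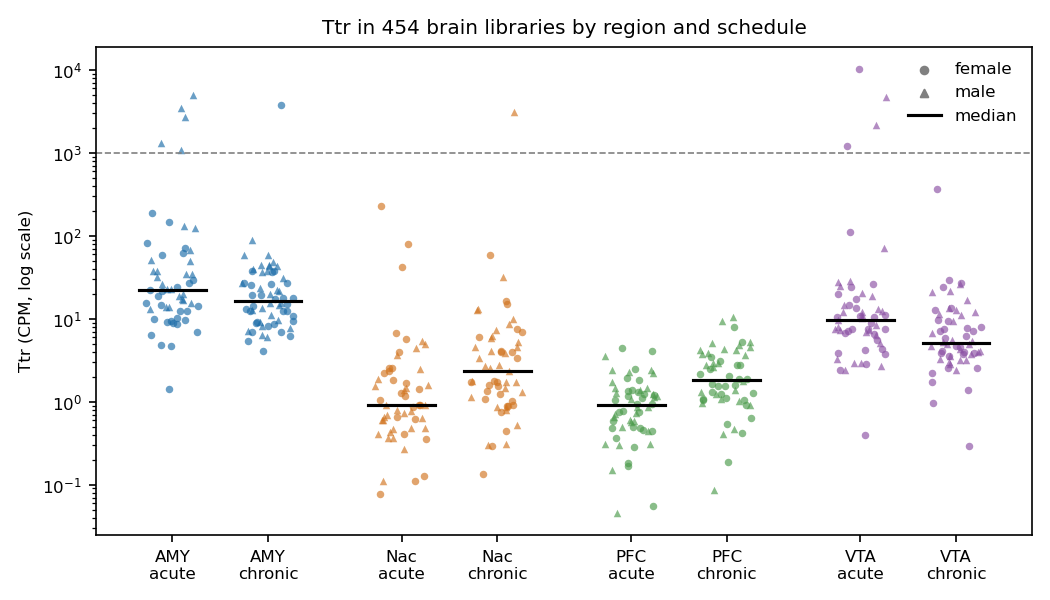
Ttr in CPM on a log axis for all libraries, split by region and schedule, 1 point per library, circles for females and triangles for males, with a bar at the median. The dashed line is at 1000 CPM, with 6 AMY, 1 Nac and 4 VTA libraries above it and no PFC library, whose highest value is 10.5 CPM.

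All other members were high in the same libraries. In AMY, Nac and VTA the libraries with the highest 6, 1 and 4 levels of each of the other members were exactly those with Ttr over 1000 CPM. Enpp2 had 2444, 2451.9, 1584, 1318, 707 and 589.9 CPM in the 6 AMY libraries, in falling order of Ttr, against at most 257 CPM in the other 109. Folr1 had 41.0, 26.7, 31.5, 23.1, 10.1 and 9.47 CPM there, against at most 1.87 CPM in the others. Both genes thus show no overlap between the 2 sets of libraries, and the same held for Kl, with 51.8 to 210 CPM against at most 21.3 CPM. In VTA, Aqp1 had 71.6, 44.8, 19.5 and 7.39 CPM in the 4 libraries, in falling order of Ttr, against at most 2.30 CPM in the other 111. Slc4a5 had 80.4, 39.2, 23.4 and 10.8 CPM there, against at most 4.16 CPM. Otx2 came close to an overlap there, with 59.8, 41.0, 17.1 and 14.4 CPM in those libraries, against at most 13.5 CPM in the others. Clic6 came closer still in AMY, where the lowest of the 6 libraries had 30.0 CPM and the highest of the others 29.3 CPM. In the Nac library F5 stood at 57.2 CPM, against at most 3.75 CPM in the other 111.

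**Figure D2:**
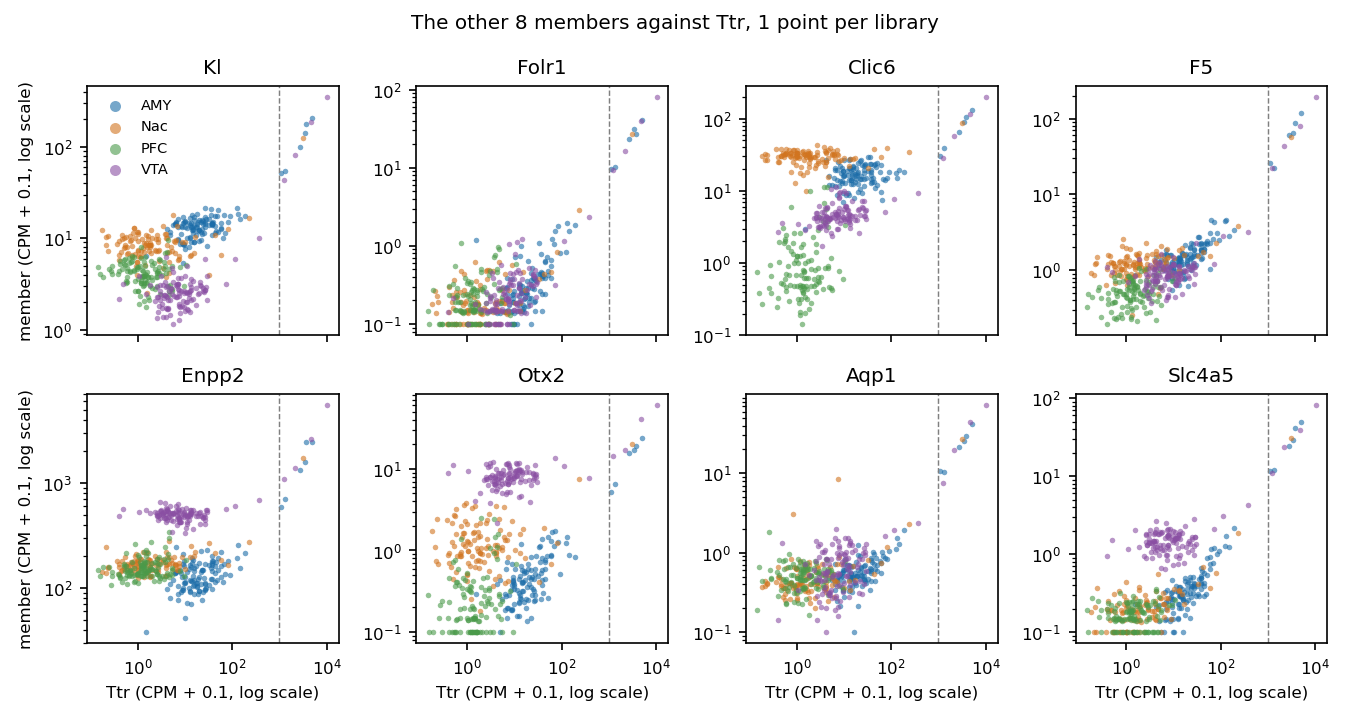
The other 8 members against Ttr, both as CPM + 0.1 on log axes, 1 point per library coloured by region, with a dashed line at 1000 CPM of Ttr. Right of the line every member rises with Ttr in AMY and VTA, and Otx2 lies higher in VTA than in AMY libraries of like Ttr. Left of it the regions differ in their median levels of Kl, Clic6, Enpp2, Otx2 and Slc4a5. The ranges of some regions overlap in each of these panels, as those of AMY, Nac and PFC do for Enpp2.

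The proportions between members lay in limited ranges in these libraries. The excess of a member was taken as its level minus the median of its region and set against the same excess of Ttr. Per 100 CPM of Ttr excess, Enpp2 had an excess of 45.2 CPM (median of 11 libraries, range 40.8 to 62.4). Kl had 3.69 CPM (3.12 to 4.43), Clic6 2.0 CPM (1.23 to 2.52) and F5 1.85 CPM (1.60 to 2.33). Slc4a5 had 0.901 CPM (0.771 to 1.09), Folr1 0.816 CPM (0.713 to 0.910), Aqp1 0.790 CPM (0.558 to 0.939) and Otx2 0.498 CPM (0.428 to 0.703). The coefficient of variation over the 11 libraries ran from 7.62% for Folr1 to 18.9% for Clic6, whose highest proportion was 2.04 times its lowest, while Ttr itself spanned 1095.2 to 10239 CPM. Over the 6 AMY libraries alone, where a correlation can be computed, Pearson's r with Ttr on the log2 scale was between 0.98 and 1.0 for all 8 members, with adjusted p between 0.00278 and 0.00556 by an exact permutation test over 8 relations, and Spearman's rho was between 0.94 and 1.0, with adjusted p between 0.00556 and 0.0167. Without the 2 libraries farthest from the median of Ttr, r was between 0.86 and 0.99. These libraries were picked by Ttr itself, so the proportions are a description.

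**Figure D3:**
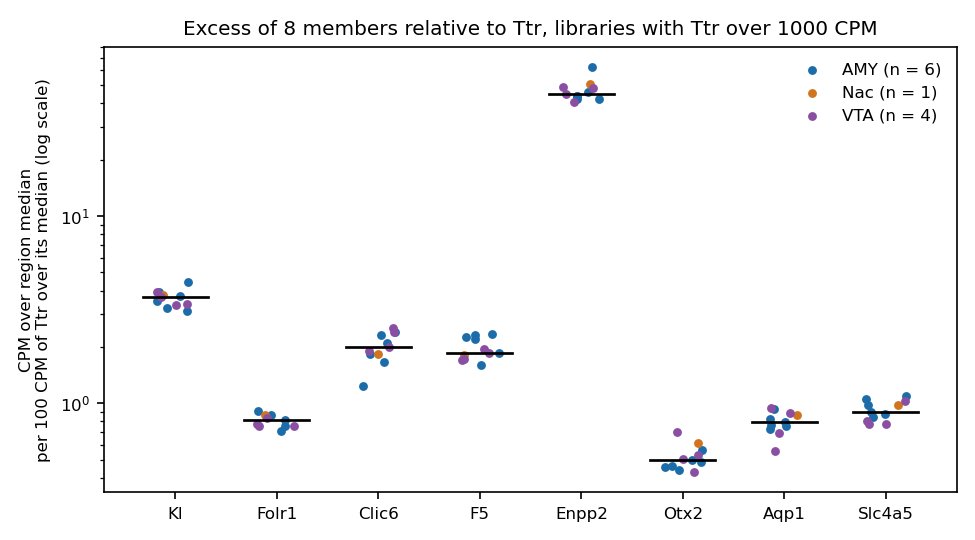
Excess of each member over the median of its region per 100 CPM of Ttr excess, on a log axis, in the 11 libraries with Ttr over 1000 CPM, coloured by region, with a bar at the median. Each member keeps to its own band, from a median of 0.498 for Otx2 to 45.2 for Enpp2, with AMY, Nac and VTA libraries intermixed.

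Every library with Ttr over 1000 CPM was above every other library of its region for 60 of 21424 detected genes in AMY (0.28%), 538 of 21304 in Nac (2.53%, with 1 such library) and 70 of 21271 in VTA (0.329%). All 9 members were among them in each region, Ttr by construction because it defined these libraries. Of 24 further genes known from the choroid plexus, 15 of 24 detected were among them in AMY, 18 of 23 in Nac and 16 of 24 in VTA. Of these, 12 did so in all 3 regions, and they include further epithelial genes: the tight junction gene Cldn2, the potassium channel genes Kcne2 and Kcnj13, and the cation channel gene Trpv4. Kcne2 had 6.34 to 34.3 CPM in the 6 AMY libraries, against at most 1.5 CPM in the other 109, and Trpv4 had 6.78 to 28.9 CPM, against at most 2.98 CPM. A further 14 genes outside both lists also did so in all 3 regions, which brings the total to 35. They were picked by their values: 1500015O10Rik, Abca4, Col8a2, Col9a3, Drc7, Fap, Pon3, Rbm47, Slc2a12, Slc31a1, Tc2n, Tjp3, Wdr86 and Zfp185. The copper transporter gene Slc31a1 was one of the closest calls among them, with 32.6 to 62.1 CPM in the AMY libraries, against at most 31.2 CPM in the others.

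Markers of neighbouring cell types were examined in the same libraries. Of the 12 ependymal genes (the ciliated lining of the ventricles), none was above the rest in all 6 AMY or all 4 VTA libraries at once, and 9 of 11 detected were in the 1 Nac library. Taken singly, 9 of the 12 were above every library up to 1000 CPM of Ttr in replicate 2 of the isolated AMY males with acute cocaine, 4 in replicate 7 of the group-housed AMY males with acute cocaine, and 3 in replicate 8 of the isolated VTA females with acute cocaine. The summed level of the 12 was 24.6 to 102 CPM in the 6 AMY libraries, against 17.0 to 84.4 CPM (median 26.3) in the others, and 117 CPM in the Nac library, against at most 78.7 CPM. In VTA it was 29.5 to 80.2 CPM, against 24.8 to 84.9 CPM, so that the ranges overlapped in AMY and VTA, with 5 of 6 AMY and 3 of 4 VTA libraries above the median of the others. None of the 12 genes of the leptomeninges and fibroblasts was above the rest in all high libraries of a region, and 1 of them was in each of 2 VTA libraries. Their sum was above the median of the other libraries in all 11. It was 131 to 471 CPM in AMY, against a median of 97.0 CPM and a highest value of 717 CPM, and 148 to 424 CPM in VTA, against a median of 90.1 CPM and a highest value of 412 CPM. Genes of hippocampal granule cells summed to 35.4 to 42.2 CPM in the 6 AMY libraries, all above the median of the others (29.9 CPM) and below their highest value (50.7 CPM). In VTA they summed to 44.9 to 179 CPM, with 2 of 4 libraries above the median of the others (92.5 CPM). Cortical glutamatergic genes summed to 238 to 1164 CPM in AMY, with 5 of 6 libraries above the median of the others (358 CPM). Dopamine neuron genes summed to 2081 to 5821 CPM in VTA, with 1 of 4 libraries above the median of the others (4645 CPM). Endothelial genes summed to 188 to 266 CPM in the 6 AMY libraries and to 140 to 384 CPM in the others, and erythrocyte genes to 48.8 to 102 CPM and 27.5 to 179 CPM in the same order. The part of these cell types in the levels of the members was not tested.

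The 11 libraries were spread over the labels. By sex, 3 were among 225 female and 8 among 229 male libraries. By housing, 6 were among 225 isolated and 5 among 229 group-housed libraries, and by dose 6 were among 231 cocaine and 5 among 223 saline libraries. By schedule, 9 were among 225 acute and 2 among 229 chronic libraries. Within series 1000, which holds both schedules, 5 of 112 acute and 1 of 84 chronic libraries were of this kind, and series 1100, 1200 and 500 held 4, 0 and 1. The 11 carried 11 different title numbers. Libraries of the same numbers from the other regions were not among the high ones: their Ttr reached at most 67.0 CPM in AMY, 28.7 CPM in VTA, 5.39 CPM in Nac and 2.75 CPM in PFC. A level over 1000 CPM was thus found in single libraries, and not in the other libraries of their title numbers. Some of these were above the median of their region. AMY libraries of high VTA numbers had 67.0, 37.8 and 29.0 CPM and that of the Nac number 6.10 CPM (AMY median 18.9 CPM). In VTA the range was 3.32 to 28.7 CPM (median 7.33 CPM). Some numbers lacked a region, and that of replicate 2 of the isolated VTA females with acute cocaine had no other library.

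Below 1000 CPM of Ttr the members still varied together in AMY, and less so elsewhere. Over the 109 AMY libraries in that range, rho with Ttr was 0.76 for Slc4a5 (r = 0.79), 0.66 for F5 (0.69), 0.63 for Folr1 (0.63), 0.58 for Otx2 (0.60) and 0.50 for Aqp1 (0.53), each with an adjusted p of 4.57e-05, the smallest that 100000 permutations and 32 relations gave here. Kl (rho = 0.37, r = 0.43, adjusted p = 0.000256) and Enpp2 (rho = 0.36, r = 0.45, adjusted p = 0.000213) also passed, and Clic6 did not by rho (rho = 0.13, r = 0.21, adjusted p = 0.226). Without the 2 libraries farthest from the median of Ttr, r was 0.79 for Slc4a5, 0.71 for Folr1 and 0.35 for Enpp2. In VTA, 5 members passed by rho: Folr1 (rho = 0.54, r = 0.57), Clic6 (rho = 0.39, r = 0.40), Aqp1 (rho = 0.30, r = 0.36), F5 (rho = 0.27, r = 0.38) and Kl (rho = 0.21, r = 0.33), with adjusted p between 4.57e-05 and 0.0404 by permutation. Enpp2 (rho = -0.10) and Otx2 (rho = 0.18) did not. Nac also had 5, led by Slc4a5 (rho = 0.43, r = 0.57, adjusted p = 4.57e-05) and F5 (rho = 0.31, r = 0.37, adjusted p = 0.003), and PFC had 3, F5 (rho = 0.30), Enpp2 (rho = 0.23) and Folr1 (rho = 0.22), with adjusted p of 0.00363, 0.0319 and 0.0394. Over the 36 pairs of members, which share libraries and depth, rho had a median of 0.40 in AMY and 0.16 in VTA, against 0.12 in Nac and 0.08 in PFC. The highest pair in PFC was Clic6 with Otx2 (rho = 0.82), in VTA it was Aqp1 with Slc4a5 (rho = 0.59), and the lowest was Clic6 with Enpp2 in VTA (rho = -0.49). Library total did not pass a test against Ttr in any region, with the smallest adjusted p in VTA (rho = 0.23, adjusted p = 0.0515 over 4 relations, permutation test).

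Regions differed in every member. Over all libraries and 64 groups, all 9 passed the test for any difference between regions, as did 98.9% of 18627 genes, so that the sizes and directions carry more than the counts. Ttr was higher in AMY than in the mean of the other regions by a log2 difference of 3.42 ± 0.19 (adjusted p = 1.71e-50, edgeR's quasi-likelihood test), and Kl by 1.68 ± 0.09 (adjusted p = 5.89e-53). Otx2 was highest in VTA, 3.92 ± 0.11 above the mean of the other regions (adjusted p = 8.27e-127), followed there by Slc4a5 (3.23 ± 0.17, adjusted p = 6.98e-59) and Enpp2 (1.67 ± 0.06, adjusted p = 3.49e-86). The summed level of 9 oligodendrocyte genes was also highest in VTA. Its median in libraries with Ttr up to 1000 CPM was 17388 CPM there, against 2354 to 6244 CPM in the other regions. The part of oligodendrocytes in the level of Enpp2 was not tested. Clic6 was highest in Nac, by 2.62 ± 0.08 (adjusted p = 2.3e-109). All 9 were lower in PFC than in the mean of the other regions, from -0.73 ± 0.07 for Enpp2 to -3.82 ± 0.12 for Clic6, where 85.5% of genes were called. In AMY 7 were higher and 2 lower, Enpp2 and Otx2 (80.9% of genes called), in VTA 5 were higher and 2 lower (89.9%) and in Nac 3 were higher and 4 lower (87.1%). PFC was not below each single region, since by median Kl was higher in PFC than in VTA (4.11 against 2.45 CPM). Likewise Enpp2 was higher in PFC than in AMY (147 against 133 CPM) and Aqp1 than in Nac (0.408 against 0.320 CPM). Folr1 could not be fitted for Nac against the other regions, where the fit returned a p of 1 at a log2 difference of -0.80. Aqp1 did not differ detectably between AMY and VTA (0.22 ± 0.20, adjusted p = 0.293), nor did Kl between PFC and VTA (0.08 ± 0.13, adjusted p = 0.587) or F5 between Nac and VTA (0.00 ± 0.13, adjusted p = 0.976). These fits include the high libraries. The middle range of Kl (quartiles) was 3.21 to 4.85 CPM in PFC and 1.97 to 3.00 CPM in VTA. Its mean in VTA was 8.26 CPM with all libraries and 2.59 CPM in those with Ttr up to 1000 CPM. Without the 11 libraries over 1000 CPM, Ttr in AMY stood at 2.63 and Otx2 in VTA at 4.12, whereas Aqp1 in AMY stood at 0.06 and was not called (adjusted p = 0.521). F5 in VTA stood at 0.20 with all libraries (adjusted p = 0.227) and at -0.20 without them (adjusted p = 0.00425).

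In AMY 5 of the 9 members were called lower in females by edgeR. Ttr had 1.42, 14.2 and 3736 CPM as lowest, median and highest value in the 59 female libraries, against 6.10, 26.7 and 5026 CPM in the 56 male libraries. The ranges overlapped widely, and the female mean of log2 levels was the lower one in 8 of 8 pairs of otherwise matched groups. Ttr was lower in females by a log2 difference of -1.81 ± 0.39 (SE, adjusted p = 0.00374, edgeR's quasi-likelihood test, adjusted over all genes after Benjamini and Hochberg, as throughout). Slc4a5 (-1.64 ± 0.47, adjusted p = 0.0363), F5 (-1.19 ± 0.31, adjusted p = 0.0178), Aqp1 (-1.17 ± 0.34, adjusted p = 0.0449) and Kl (-0.60 ± 0.16, adjusted p = 0.0267) were lower as well. Folr1 (-1.34, adjusted p = 0.124), Otx2 (-1.17, adjusted p = 0.0509), Enpp2 (-0.60, adjusted p = 0.0659) and Clic6 (-0.40, adjusted p = 0.0967) did not pass. No member was called higher, and 2.19% of 17391 genes were called, 1.34% lower and 0.851% higher. The count of 5 was 8 with DESeq2, 2 without a filter on low counts, 1 in the saline groups alone and 0 with limma voom. The median log2 difference was -1.17 over the 9 members, against 0 over all genes. Of the 24 further choroid plexus genes, 7 were lower, with a median of -0.58, led by the ferrireductase gene Steap1 (-1.37, adjusted p = 0.00823) and Col8a1 (-0.51, adjusted p = 0.0196). No ependymal gene passed (0 of 11 tested, median -0.13).

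Of the 6 AMY libraries with Ttr over 1000 CPM, 1 was female and 5 were male. Without them Ttr averaged 23.8 ± 31.8 CPM in females (SD, n = 58) and 32 ± 26.4 CPM in males (SD, n = 51), and its log2 difference was -0.63 ± 0.21 (adjusted p = 0.11). Kl was the only member called without them (-0.27, adjusted p = 0.0116), with a mean of 12.3 ± 2.82 CPM in female and 14.6 ± 3.16 CPM in male libraries (SD). F5 (-0.32, adjusted p = 0.146), Slc4a5 (-0.59, adjusted p = 0.161) and Aqp1 (-0.13, adjusted p = 0.706) fell short. Without the library whose Y-linked genes went against its label, all 5 calls stood, with Ttr at -1.79 (adjusted p = 0.00464) and Aqp1 at -1.17 (adjusted p = 0.0497). Without replicate 2 of the isolated males with acute cocaine, 1 of the 6 high libraries, Ttr alone was called (-1.38, adjusted p = 0.03). Within number series Ttr differed by -1.09 in series 1000, -4.29 in 1100, -1.19 in 1200 and 0.19 in 500. No member was called in any, of 7 tested in series 1000 and 5 in each other series. These fits compared the sexes with housing, dose and schedule pooled, unlike the fit by groups above. No member was called for sex in Nac, PFC or VTA, where 0.272%, 1.12% and 0.332% of genes were called, and the log2 differences of Ttr there were 0.54 (adjusted p = 0.797), -0.31 (adjusted p = 0.551) and -0.34 (adjusted p = 0.938).

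**Figure D4:**
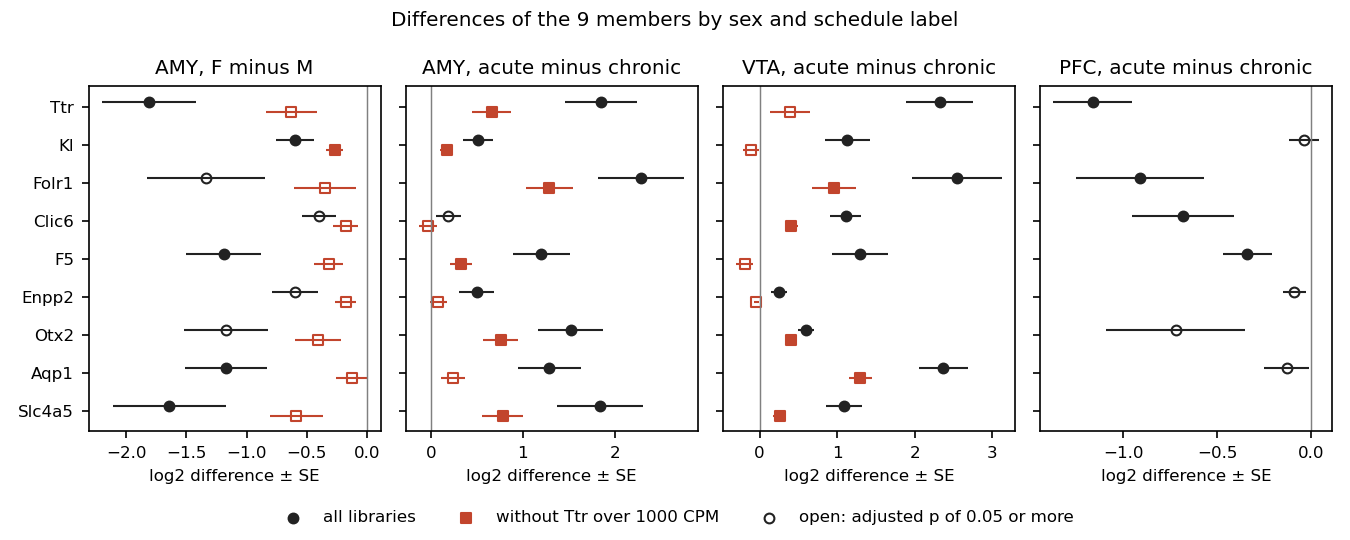
Log2 differences of the members, with their SE as bars, for sex in AMY and for schedule in AMY, VTA and PFC, in all libraries (black) and without those with Ttr over 1000 CPM (red), with open symbols where adjusted p is 0.05 or more. Slc4a5 was not tested in PFC, where no library passes 1000 CPM. Most differences shrink without the high libraries, and Ttr in VTA stands at 2.32 in all libraries and at 0.39 without the high ones.

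By edgeR no member was called for housing in any region, and no gene at all was called for housing by edgeR in AMY, Nac, PFC or VTA (0% of genes, while an unadjusted p was under 0.05 for 407 genes in PFC and up to 708 in AMY). The smallest p was that of Ttr in VTA, which had a log2 difference of 1.76 ± 0.42 between isolated and group-housed mice (unadjusted p = 7.08e-05, adjusted p = 0.607, and 0.00776 by DESeq2, which called no other gene there). Of the 4 VTA libraries over 1000 CPM, 3 are from isolated and 1 from group-housed mice.

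By edgeR no member was called for acute cocaine in any region, where 0% of genes were called in AMY and Nac, 0.0647% in PFC (0.0412% higher) and 0.0467% in VTA. The smallest adjusted p was that of Folr1 in VTA (2.40 ± 0.64, adjusted p = 0.205). DESeq2 called 3 members higher there, Folr1 (adjusted p = 0.0111), F5 (adjusted p = 0.0197) and Kl (adjusted p = 0.0469). On the chronic schedule, edgeR called 2 members in PFC and none elsewhere. Kl had 2.54, 4.73 and 9.54 CPM as lowest, median and highest value in the 28 PFC libraries with chronic cocaine, against 1.83, 3.55 and 7.82 CPM in the 26 with chronic saline (log2 difference 0.35 ± 0.11, adjusted p = 0.035). Clic6 had 0.282, 1.01 and 11.3 CPM with cocaine, against 0.170, 0.496 and 11.4 CPM with saline (1.16 ± 0.37, adjusted p = 0.0381), with the higher mean of log2 levels in the cocaine group in 4 of 4 pairs. The ranges overlapped for both genes. In this comparison 7.12% of 17003 genes were called, 3.93% as higher, so 2 of 8 members tested is a share to be read against a wide background. Cocaine and saline also differ in number series there: the 28 cocaine libraries are 20 of series 1000 and 8 of series 1200, and the 26 saline libraries are 10 of series 500 and 16 of series 1200. With number series as a term, 1 of 17003 genes was called, Kl stood at 0.15 and Clic6 at 1.04 (both adjusted p = 1), and outside series 1200, which alone holds both chronic treatments, series and treatment cannot be told apart. Without a filter on low counts both calls were lost (adjusted p = 0.0678 and 0.0749). The shares of genes called were 0.0518% in AMY (0.0288% higher), 0.151% in Nac (0.0869% higher) and 0.0817% in VTA. Ttr had a log2 difference of 1.93 ± 0.55 with chronic cocaine in AMY (adjusted p = 0.218, and 0.0424 by DESeq2), where the 1 chronic library over 1000 CPM is a cocaine one, and of 0.60 without it (adjusted p = 0.666). In Nac the log2 difference of Ttr was -1.49 ± 0.60 (adjusted p = 0.173), where the 1 library over 1000 CPM is a chronic saline one, and 0.19 without it (adjusted p = 0.857). The summed level of the 9 members there had a median of 212 CPM with cocaine and 211 CPM with saline.

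Acute libraries had higher levels of the members in VTA and AMY and lower levels of several in PFC and Nac than chronic libraries. This comparison of acute with chronic libraries was added after the values had been seen, and its groups differ in number series and in whatever else separated the schedules, so that schedule and series cannot be told apart outside series 1000. Within series 1000 all chronic libraries are cocaine ones, while the acute ones are cocaine and saline, so that schedule and treatment overlap there. With all libraries, the comparison called 57.0% of genes in VTA (29.1% higher, 27.9% lower) and 37.1% in AMY (19.4% and 17.7%). In PFC it called 36.3% (16% and 20.3%) and in Nac 36.6% (16.7% and 19.9%). These shares are the background for the counts below from the same fits. No share is given beside the counts without the libraries over 1000 CPM. In VTA all 9 members were higher in acute libraries. Aqp1 had 0.165, 0.928 and 71.6 CPM as lowest, median and highest value in 57 acute libraries, against 0, 0.323 and 2.30 CPM in 58 chronic libraries (2.37 ± 0.32, adjusted p = 8.73e-10). Otx2 had 4.79, 9.32 and 59.8 CPM in acute libraries, against 2.07, 7.05 and 9.89 CPM in chronic libraries (0.60 ± 0.10, adjusted p = 1.39e-07). The acute mean of log2 levels was the higher one in 8 of 8 pairs of groups for both genes, although single libraries overlapped. Ttr (2.32 ± 0.43, adjusted p = 2.4e-06) and Folr1 (2.54 ± 0.58, adjusted p = 0.000106) had differences of like size. All 4 VTA libraries with Ttr over 1000 CPM are acute. Without them, Aqp1 averaged 0.923 ± 0.375 CPM in acute libraries (SD, n = 53) and 0.372 ± 0.326 CPM in chronic libraries (SD, n = 58) and was still called (1.3, adjusted p = 5.51e-12), as were Folr1 (0.96, adjusted p = 0.00197), Clic6 (0.41, adjusted p = 1.17e-05), Otx2 (0.40, adjusted p = 3.9e-08) and Slc4a5 (0.26, adjusted p = 0.00507). Ttr was not (0.39, adjusted p = 0.185), and Kl (-0.11), F5 (-0.19) and Enpp2 (-0.04) turned to the other side of 0 with adjusted p of 0.353, 0.126 and 0.319. With number series as a term Aqp1 alone passed (1.80, adjusted p = 0.0498). Within series 1000, 7 of 8 members tested were higher in acute libraries, where 47.6% of genes were called, with Aqp1 at 2.11 (adjusted p = 0.000183) and Ttr at 2.41 (adjusted p = 0.0199).

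In AMY 8 of 9 members were higher in acute libraries, all but Clic6 (0.19 ± 0.14, adjusted p = 0.27). Ttr had 1.42, 22 and 5026 CPM in 55 acute libraries, against 4.10, 16.5 and 3736 CPM in 60 chronic libraries (1.85 ± 0.39, adjusted p = 8.26e-05). Folr1 had medians of 0.273 CPM in acute and 0.134 CPM in chronic libraries (2.29 ± 0.47, adjusted p = 4.5e-05). The ranges again overlapped. Without the 6 high libraries, 5 of which are acute, 6 members were still called, among them Folr1 (1.29, adjusted p = 4.88e-05), Otx2 (0.76, adjusted p = 0.0011) and Ttr (0.66, adjusted p = 0.0107). Within series 1000 none was called, with Ttr at 0.62 (adjusted p = 0.636), and none was with series as a term (Ttr 1.44, adjusted p = 0.249).

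In PFC, where no library is high, the direction was the opposite. Ttr had 0.0458, 0.902 and 4.50 CPM in 58 acute libraries, against 0.0852, 1.84 and 10.5 CPM in 54 chronic libraries (-1.16 ± 0.21, adjusted p = 4.61e-06), with the higher mean of log2 levels in the acute group in 1 of 8 pairs. Folr1 (-0.91 ± 0.34, adjusted p = 0.028), Clic6 (-0.68 ± 0.27, adjusted p = 0.0378) and F5 (-0.34 ± 0.13, adjusted p = 0.0286) were lower too, so that 4 of 8 members tested fell and none rose. Within series 1000 Ttr stood at -1.72 (adjusted p = 0.000112), where 28.3% of genes were called, and with series as a term at -1.53 (adjusted p = 0.00744). In Nac 3 of 8 members were lower in acute libraries, Ttr (-1.36 ± 0.46, adjusted p = 0.0157), Aqp1 (-0.84 ± 0.27, adjusted p = 0.00899) and F5 (-0.57 ± 0.18, adjusted p = 0.00827), and Clic6 was higher (0.16 ± 0.06, adjusted p = 0.0421). Ttr had 0.0782, 0.922 and 232 CPM in 55 acute Nac libraries, against 0.135, 2.35 and 3098 CPM in 57 chronic libraries. Without the 1 high library, a chronic one, Ttr was not called (-0.50, adjusted p = 0.281), whereas Clic6 (0.20, adjusted p = 0.00205), Kl (0.31, adjusted p = 0.000955) and Otx2 (0.64, adjusted p = 0.00191) were. Within series 1000 the log2 difference of Ttr in Nac was -2.70 (adjusted p = 0.000745), and with series as a term it was -3.01 (adjusted p = 0.0803) and 0 of 8 members were called.

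Genes of other lists were also called for schedule in the same fits. Of the further choroid plexus genes, 16 of 22 tested were higher in acute VTA libraries (median 0.52, against 0 over all genes), led by the keratin gene Krt18 (1.69) and the prolactin receptor gene Prlr (1.07), and 10 of 24 were higher in AMY (median 0.32). Over all genes, 29.1% were higher in VTA and 19.4% in AMY. In PFC 8 of 15 were lower (median -0.23), led by Rdh5 (-0.22), against 20.3% of all genes. In Nac 3 of 19 were lower (median -0.08), no more than the 19.9% of all genes that were lower there. Ependymal genes were higher in 8 of 10 cases in VTA and 10 of 11 in AMY, although the median of their summed level was 33.4 CPM in acute and 34.3 CPM in chronic VTA libraries. In PFC, 8 of 12 genes of the leptomeninges were lower and 2 of 11 ependymal genes, against the same 20.3% of all genes. Pituitary genes were lower in acute libraries in all 4 regions (5 of 5 tested in VTA, median -4.77), which is the opposite of the members in VTA and AMY. The part of these lists in the schedule differences of the members was not tested.

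Whether an effect of cocaine depended on sex and housing was tested as such. In VTA 7 of 9 members passed for acute cocaine, with adjusted p from 5.75e-05 for Ttr to 0.00191 for Slc4a5, against 0.362% of 17144 genes. Group by group, Ttr had 2.44, 20.0 and 10239 CPM as lowest, median and highest value in isolated females with acute cocaine and 4.21, 10.8 and 24.2 CPM in isolated females with acute saline. In isolated males it had 2.44, 18.6 and 4714 CPM with cocaine and 2.69, 12 and 27.9 CPM with saline. In group-housed males it had 2.91, 10.1 and 14.6 CPM with cocaine and 3.32, 7.44 and 2153 CPM with saline, and in group-housed females 0.393, 6.55 and 10.5 CPM with cocaine and 3.72, 7.63 and 19.9 CPM with saline. The medians lay within 6.55 to 20.0 CPM, and the highest values were those of single libraries. Without the 4 libraries over 1000 CPM none of the 9 passed, with adjusted p from 0.465 to 0.995. In Nac, Ttr (adjusted p = 0.0108) and F5 (adjusted p = 0.0496) passed for chronic cocaine, against 0.145% of 17266 genes, and neither did without the 1 high library (adjusted p = 0.452 and 0.933). A dependence of the sex difference on housing was called for no member in any region, nor for any gene (0%, although 329 to 2101 genes had an unadjusted p under 0.05). Any difference between the 16 groups was found for 9 of 9 members in both AMY (12.4% of genes) and VTA (32.9%), for 6 of 8 in Nac (20.7%) and for 5 of 8 in PFC (22.9%). Without the libraries over 1000 CPM it was found for 4 of 9 members tested in AMY (Ttr, Folr1, Otx2 and Slc4a5) and 3 of 7 in Nac (Ttr, Kl and Aqp1). In VTA it was then found for 6 of 9, without Kl, F5 and Enpp2. The shares of genes above belong to the fits with all libraries. These later counts have no share beside them, so they do not show whether the members stood out from other genes.

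Whether a label acted differently between regions was tested over all libraries. The schedule difference differed between regions for all 9 members, with adjusted p from 1.32e-12 for Aqp1 to 0.00181 for Enpp2, where 57.6% of genes did so, and for 8 without the libraries over 1000 CPM, all but Enpp2 (adjusted p = 0.363). The effect of chronic cocaine differed for Otx2 (adjusted p = 0.0215) and Ttr (adjusted p = 0.0258), against 0.929% of genes, and without those libraries for Clic6 alone (adjusted p = 0.0312). The sex difference was not shown to differ between regions for any member (0.172% of genes), with the smallest adjusted p for Ttr at 0.1, and without those libraries Ttr was called (adjusted p = 0.00369). No member was called for housing by region (0% of genes) or acute cocaine by region (0.0322%).

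The share of spread that a label took up differed by member. Region took up 82.8% of the variance of Clic6 over all libraries (adjusted R2 of log2 values), 76.9% of Otx2, 64.7% of Enpp2, 57.9% of Slc4a5, 56.7% of Kl and 43.9% of Ttr, but only 30.7% of F5, 7.74% of Folr1 and 4.03% of Aqp1. Within a region, schedule took up 31.9% for Aqp1 and 23.4% for Otx2 in VTA and 16.7% for Ttr in PFC. Number series, which overlaps with schedule, took up 18.7%, 22.6% and 14.5% in these same cases, 20.5% for Kl in PFC, and 11.9% for Ttr in Nac, where schedule took up 5.69%. Sex took up 7.34% for Ttr in AMY, the most of any single label there, and all 16 groups together 14.2%, so most of the spread of Ttr in AMY lay within groups.

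Levels of Ttr in Nac and PFC varied together by title number. Over 99 numbers with a library in both Nac and PFC, the levels of Ttr correlated with rho = 0.66 (r = 0.56, adjusted p = 6e-05 for both over 6 pairs of regions, permutation test), and r was 0.66 without the 2 numbers farthest from the median. The relation held on values centred on the 16 group means (rho = 0.50), within acute (rho = 0.59, n = 51) and within chronic libraries (rho = 0.63, n = 48). By number series, rho was 0.82 in series 1000 (n = 44), 0.47 in series 1200 (n = 23), 0.20 in series 1100 (n = 25, adjusted p = 0.604) and -0.14 in series 500 (n = 7, adjusted p = 0.783, permutation test). None of the other 8 members did so between Nac and PFC, with rho from -0.15 for Aqp1 to 0.25 for F5 and a smallest adjusted p of 0.102. Between AMY and VTA, rho of Ttr was 0.27 (r = 0.15, adjusted p of rho = 0.0216, n = 102). The call was lost on values centred on the group means (rho = 0.00, adjusted p = 0.977) and in the range up to 1000 CPM (rho = 0.21, adjusted p = 0.139). The other 4 pairs of regions did not pass, with rho from -0.08 to 0.17, but on centred values AMY with PFC (rho = 0.26, r = 0.24, adjusted p of rho = 0.0201) and Nac with VTA (rho = 0.28, r = 0.16, adjusted p of rho = 0.0165) did. Within chronic libraries AMY with PFC (rho = 0.46, r = 0.36, n = 51, adjusted p of rho = 0.00252), AMY with VTA (rho = 0.40, r = 0.29, n = 54, adjusted p of rho = 0.0063) and Nac with VTA (rho = 0.35, r = 0.16, n = 52, adjusted p of rho = 0.0171) passed by rho as well.

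**Figure D5:**
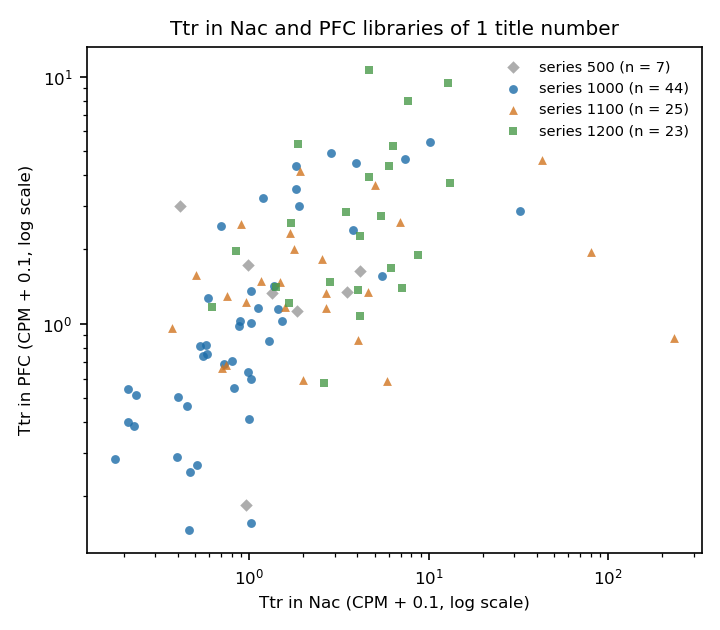
Ttr in the PFC library against Ttr in the Nac library of the same title number, both as CPM + 0.1 on log axes, for 99 numbers marked by number series. The 44 numbers of series 1000 rise together (rho = 0.82), and those of series 1100 scatter (rho = 0.20).

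Genes were also ranked by their likeness to Ttr, as the mean over the 4 regions of rho with Ttr within a region, among 13527 genes with a mean of at least 1 CPM together with the members. Folr1 (0.43), F5 (0.42) and Slc4a5 (0.38) took the first places and Aqp1 (0.32) the fifth, whereas Otx2 (0.26) stood at rank 31, Enpp2 (0.25) at 39, Clic6 (0.21) at 150 and Kl (0.14) at 863. The 10 genes outside the members with the highest values were Msx1 (0.34), Trpv4 (0.31), Cldn2 (0.30), Marveld1, Fkbp9, Slc12a4, Mvp and Vamp8 (0.28 each), and Ginm1 and Col8a2 (0.27 each). The first 3 are on the list of further choroid plexus genes. Msx1 had rho of 0.49 in VTA and 0.41 in AMY, against 0.23 in Nac and 0.21 in PFC, while Marveld1 had 0.53 in PFC and 0.03 in AMY. Kl and Clic6 thus had the lowest mean rho with Ttr of the members.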

How the data were processed

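The authors deposited raw counts of reads per gene for 454 mouse brain libraries, with 43346 genes in rows. Per the labels' protocols, libraries were made from poly(A)-selected RNA with a stranded kit, pooled in sets of 21 and read as 50-base single ends. GRCm38 (mm10), STAR, featureCounts and limma are named in the submitters' processing notes. Their versions, the gene annotation and whether counting used strand: not given in the sources used here. Gene symbols were matched by ID for 42462 genes, and the other 884 hold 0.11% of counts.

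Counts were tested with edgeR 4.0.16 (R 4.3.3, quasi-likelihood, robust, TMM factors, filterByExpr, Benjamini-Hochberg over all genes tested, threshold 0.05), with the 16 groups of a region as cell means, and with all 64 groups for comparisons between regions. Levels are CPM with TMM factors over all libraries, and log2 levels outside these fits are log2(CPM + 0.1). Slc4a5 did not pass the filter on low counts in Nac and PFC, and the other members did in all regions. Correlations used 100000 permutations, two-sided, with a smallest p of 1e-05. The step for many genes was tested on simulated data. The genes named beside the members are the 10 most like Ttr, and up to 4 of each fixed list by lowest p, and others are said to be chosen by their values. Alternatives were DESeq2 1.42.0, limma voom (limma 3.58.1), RLE factors, no filter, number series as a term and libraries left out. The members and lists were chosen with earlier results of these data known. The comparison of schedules, the fits without libraries over 1000 CPM of Ttr or with Y-linked genes against the label, and the values within number series were chosen after seeing the data. No 2 libraries of a group agreed within sampling noise, with a smallest chi-square per degree of freedom of 2.69.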

Additional observations from a re-analysis of the deposited data

Results flagged for a closer look

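In 12 of the 64 groups (18.8%) the Ttr of 1 library stood apart from the rest of its group on the log2 scale by Dixon's test, and over all 9 members this held in 99 of 576 cases (17.2%). Chance alone would set apart about 1 group in 20. The high values in AMY were 3736 CPM (group-housed females with chronic cocaine, replicate 5), 145 CPM (group-housed females with acute saline, replicate 2), 5026 CPM (group-housed males with acute cocaine, replicate 7) and 1095.2 CPM (group-housed males with acute saline, replicate 3). In Nac they were 232 CPM (group-housed females with acute saline, replicate 4), 7.52 CPM (isolated females with chronic cocaine, replicate 7) and 3098 CPM (group-housed males with chronic saline, replicate 8). In VTA they were 2153 CPM (group-housed males with acute saline, replicate 2), 21.9 CPM (group-housed males with chronic saline, replicate 2) and 4714 CPM (isolated males with acute cocaine, replicate 7). The values were low in 2 cases, at 0.0561 CPM in PFC (isolated females with acute cocaine, replicate 4) and 0.393 CPM in VTA (group-housed females with acute cocaine, replicate 1).

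The effect of cocaine was not alike in all 4 pairings of sex and housing for 7 members in VTA (acute) and 2 in Nac (chronic), by the test of the difference itself. Between regions, the effect of chronic cocaine differed for 2 members and that of schedule for 9.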

How the results depend on the processing

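Counts of members called stayed within 1.5 times of their value in 267 recomputed cases and moved further in 41, which follow. The causes of these moves were not tested. For sex in AMY, 5 members were called, against 8 with DESeq2, 0 with limma voom, 2 without a filter, 1 with saline groups only, 1 without libraries over 10 times the region median of Ttr, 1 without those over 1000 CPM, and 0 within each of the number series 1000, 1100, 1200 and 500. Within series, 7 members were tested in series 1000 and 5 in each other series, with the other labels pooled. Leaving out each replicate of the isolated AMY males with acute cocaine, the smallest group, gave 1 to 7, with the 1 from leaving out replicate 2, which has Ttr at 2714 CPM. For schedule in AMY, Nac, PFC and VTA, voom gave 4, 2, 2 and 5 members, against 8, 4, 4 and 9, number series as a term gave 0, 0, 2 and 1, series 1000 alone gave 0 in AMY, and VTA gave 5 without libraries over 1000 CPM. For chronic cocaine in PFC, 2 were called, against 1 with voom and 0 without a filter or with number series. DESeq2 called 1 for chronic cocaine in AMY, 1 for housing in VTA and 3 for acute cocaine in VTA, against 0 each. Differences between any groups fell to 4, 2 and 5 members in AMY, Nac and VTA without libraries over 10 times the median, and to 4 and 3 in AMY and Nac without those over 1000 CPM, against 9, 6 and 9. Acute cocaine by combination in VTA gave 0 without either set, against 7, and chronic cocaine by combination in Nac gave 1 and 0, against 2. Chronic cocaine by region gave 1 without either set, against 2, and sex by region gave 1 without those over 1000 CPM, against 0. The rank correlation with Ttr in PFC passed for 1 member on centred values, against 3, and that of Ttr between regions for 1 pair up to 1000 CPM, against 2.

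Over all genes, number series as a term left 0.00588% of genes for chronic cocaine in PFC, against 7.12%, with 2 against 9 in AMY, 1 against 26 in Nac and 5 against 14 in VTA. For schedule in AMY, Nac, PFC and VTA it left 2298, 292, 997 and 4897 genes, against 6459, 6311, 6174 and 9766, and series 1000 alone gave 3424 in AMY and 3120 in Nac. Sex gave 31, 15, 25 and 15 genes within series 1000, against 381, 47, 191 and 57. For acute cocaine in VTA, 8 genes were called, against 21 with DESeq2, 0 with voom, 5 without libraries over 10 times the median and 0 without those over 1000 CPM, and by combination 62, against 0 without either set. Chronic cocaine gave 99 genes with DESeq2 and 7 with voom in Nac, 19 with DESeq2 in AMY and 0 with voom in VTA, and by combination in Nac 89 without libraries over 10 times the median, against 25. DESeq2 called 1 gene for housing in VTA and 2 for acute cocaine in Nac, against 0 each.

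Directions reversed for Ttr by sex in AMY within series 500 (0.19), for rho of Ttr between Nac and PFC in series 500 (-0.14), and for schedule in VTA: without libraries over 1000 CPM for Kl (-0.11), F5 (-0.19) and Enpp2 (-0.04), and without those over 10 times the median for Kl (-0.09), F5 (-0.22, adjusted p = 0.0365) and Enpp2 (-0.03).

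Libraries of one title number in 2 regions had a median correlation of their deviations from the group means of 0.04 to 0.09 over genes, against 0 to -0.01 for other numbers of the same groups. The median was higher for the same number in every pair of regions, and 26 to 45 of 99 to 106 pairs of libraries passed 0.1. The labels do not say what a number stands for, and the main fits did not pair libraries by it. Tests between regions thus treat libraries of one number as independent, which they may not be. With the title number as a replicate block in limma voom (449 libraries, 124 numbers), 9, 9, 9, 9 and 7 members were called for any region, AMY, Nac, PFC and VTA, the same counts as without the replicate block, against 9, 9, 7, 9 and 7 in edgeR. The planned edgeR fit with the block was not run, and voom took its place after the data had been seen.

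Folr1 and Slc4a5 had no reads in 22 to 30 of the 112 libraries in Nac and in PFC, so small differences in them were not detectable at this depth.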
